A study of Mus musculus with 4 samples.

Results

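The replication-dependent core histone genes encode the H2A, H2B, H3 and H4 proteins that package newly copied DNA. They were taken as every row of the FPKM table whose symbol starts with Hist1 to Hist4 and names one of these 4 proteins. This gave 62 of 23235 gene symbols, namely 18 H2A, 19 H2B, 12 H3 and 13 H4 genes, and the linker histone H1 genes were left out. By locus, 48 belonged to the Hist1 cluster on chromosome 13, 10 to Hist2 on chromosome 3, 3 to Hist3 on chromosome 11, and the last, Hist4h4, lies alone on chromosome 6. The rule uses names alone and no measured value.

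RNA was measured in 4 mouse libraries of strain 129S4/SvJae, with 1 library per group. WT_ES were wild-type embryonic stem cells (J1 background) at day 0, and WT_NP were neural progenitor cells made from them, taken at day 6 after 4 days as embryoid bodies and 2 days in retinoic acid. DKO_ES and DKO_NP were the same cell types and times with Dnmt3a and Dnmt3b, the enzymes that place new DNA methylation, both knocked out. ES cells had been grown on irradiated feeder cells in earlier passages and then off them on gelatin, with LIF. The labels do not say whether the knockout is 1 clone. No group has a replicate, so no difference below carries a test or a biological error. The intervals given are 95% Clopper-Pearson intervals on read numbers estimated from the table, and cover counting error only.

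Core histone genes of this kind have no introns, are transcribed mostly in S phase, and sit in clusters where H2A and H2B genes often start back to back. Their mRNAs end in a stem-loop in place of a poly(A) tail; the stem-loop binding protein SLBP and the U7 snRNP, which includes Lsm10 and Lsm11, direct the cut that makes this end. Libraries from rRNA-depleted total RNA, as here, keep such mRNAs, whereas selection for poly(A) would lose most of them.

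The stem-loop was looked for in the GENCODE M21 transcripts (build GRCm38) as GG, 2 free bases, CTT, 1 free base, T, 1 free base, A, 2 free bases and GCC, on the transcript strand. It was found in the longest transcript of 39 of the 62 members (62.9%). In all 55450 annotated genes, where any transcript of a gene could match, it was found in 183 (0.33%). By type the 39 members were 11 of 18 H2A, 9 of 19 H2B, 9 of 12 H3 and 10 of 13 H4 genes. A missing match says only that these letters are not in the longest annotated transcript, since some models stop at the coding sequence. The forms found are shown because the stem tells the H4 genes apart from the other types; capitals mark the loop.
Most common form, in 10 H2A, 7 H2B and 5 H3 genes: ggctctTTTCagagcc
Form in 2 H2B and 3 H3 genes (Hist1h2bb, Hist1h2bk, Hist1h3c, Hist1h3e and Hist1h3f): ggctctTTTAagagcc
Form in Hist1h3g: ggctctTCTTagagcc
Form in Hist2h2ac: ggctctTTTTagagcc
Main H4 form, in 7 H4 genes: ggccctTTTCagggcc
Form in Hist1h4i and Hist2h4: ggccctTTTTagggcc
Form in Hist1h4a: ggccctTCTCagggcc
All 10 matching H4 genes had the stem of the last 3 forms listed, and all 29 matching genes of the other types had that of the first 4.

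Upstream of the genes, 55 members had a RefSeq promoter (GRCm38.p6), and the 250 bases before the start were searched on both strands. CCAAT was present in 44 of 55 (80.0%) against 34.5% of all 27025 promoters, and TATAAA in 25 (45.5%) against 13.0%. The octamer ATTTGCAT, the binding motif of Oct factors, was present in 13 (23.6%) against 1.61%, in 7 of 17 H2A and 6 of 16 H2B promoters and in none of the 10 H3 or 12 H4 promoters. Back-to-back pairs share this stretch, so their matches are not independent. The median number of CpG dinucleotides in the 250 bases was 9.0 for the members and 6.0 for all genes. The last 150 bases before the start of 4 members are printed because the results turn on them: Hist1h2aa and Hist1h2ba, a back-to-back pair that departed from the other members, and Hist2h2bb and Hist1h4d, the members with the highest levels. Capitals mark matches to these 3 motifs on either strand.
Hist1h2aa, chr13:23934287-23934436, plus strand: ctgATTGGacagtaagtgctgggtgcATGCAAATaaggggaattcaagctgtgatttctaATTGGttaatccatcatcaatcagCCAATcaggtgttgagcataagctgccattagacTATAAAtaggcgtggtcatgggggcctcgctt
Hist1h2ba, chr13:23934157-23934306, minus strand: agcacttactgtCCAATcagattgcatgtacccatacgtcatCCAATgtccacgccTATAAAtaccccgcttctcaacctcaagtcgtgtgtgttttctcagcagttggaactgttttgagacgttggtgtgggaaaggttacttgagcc
Hist2h2bb, chr3:96269550-96269699, plus strand: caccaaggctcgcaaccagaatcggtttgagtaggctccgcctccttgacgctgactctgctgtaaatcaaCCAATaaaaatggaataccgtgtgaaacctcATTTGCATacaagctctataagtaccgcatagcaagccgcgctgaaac
Hist1h4d, chr13:23581418-23581567, plus strand: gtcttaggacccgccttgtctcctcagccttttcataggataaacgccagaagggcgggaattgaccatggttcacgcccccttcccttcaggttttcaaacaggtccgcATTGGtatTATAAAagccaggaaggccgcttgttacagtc
TATAAA began 32 bases before the annotated start of both Hist1h2aa and Hist1h4d and 94 bases before that of Hist1h2ba. The stretch of Hist1h2aa held an octamer 124 bases before its start, written there in reverse as ATGCAAAT. Hist2h2bb had the octamer 48 bases before its start and no TATAAA in this stretch. These stretches held 2 CpG for Hist1h2aa, 5 for Hist1h2ba, 8 for Hist2h2bb and 6 for Hist1h4d.

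FPKM, a read density per length of transcript and per library, lets genes of unequal length be compared within a library. Of the 62 members, 54 reached 1 FPKM in at least 1 library and 8 did not reach it in any. Those 8 were Hist1h2ad, Hist1h2ao, Hist1h2ap, Hist1h2bq, Hist1h2br, Hist1h4n, Hist2h2aa1 and Hist2h2aa2. Many members are near copies, and a read of 50 bases can match several. Across the 8, between 0.0% and 32.9% of the 50-base windows of the transcript were found at no other locus (median 6.71%), against 6.08% to all of them (median 54.5%) for the other 54. All 32 members with more than 50% of such windows were among the 54. Windows were counted over the longest annotated transcript, which for some members runs far past the stem-loop. For Hist1h2ac it spans 2482 bases, whereas its read numbers were estimated on a length of 487. Its 88.4% can therefore overstate how much of the short mRNA is its own, and the same may hold for other members with long transcripts. How reads with several matches were assigned is not given in the sources used here, so the level of a member with few windows of its own is uncertain, and a listed 0 does not show that the gene was silent. Reads from an antisense or overlapping gene cannot be told apart either, since a stranded protocol is not stated.

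**Figure D1:**
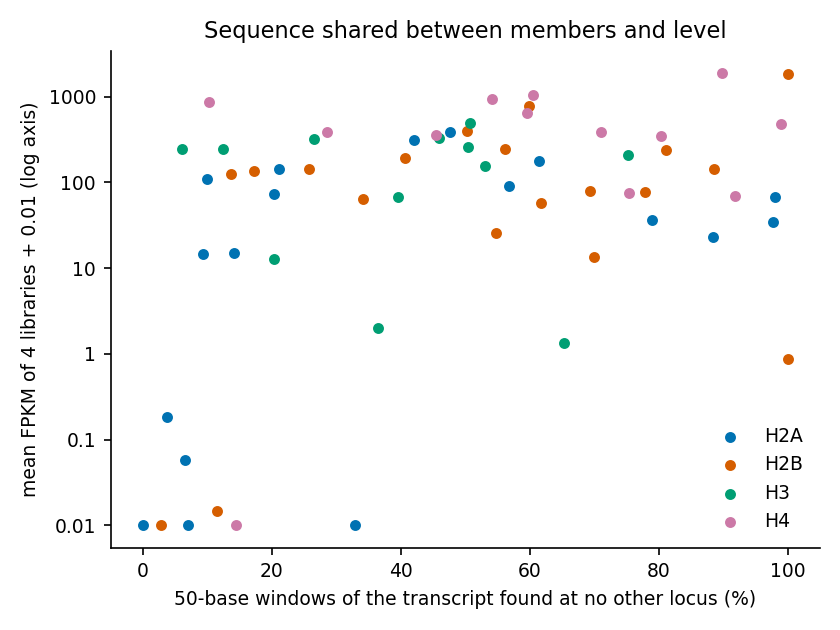
Mean FPKM over the 4 libraries plus 0.01 (log axis) against the percentage of 50-base windows of each longest annotated transcript found at no other locus, 1 point per member, coloured by histone type. The 8 members that stay under 1 FPKM in every library all have at most 32.9% of windows of their own.

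H4 genes had the highest summed and median levels of the 4 types in every library. Hist1h4d was deposited at 2839.6 FPKM (WT_ES), 1022 (WT_NP), 1639 (DKO_ES) and 2009.8 (DKO_NP). Hist2h2bb, an H2B gene with no window shared with another locus, was at 2327, 1007, 1774 and 2297 FPKM in the same order. These 2 genes were the highest members in every library, with WT_ES highest and WT_NP lowest for both as deposited. Hist1h4f, the next H4 gene by summed level, was at 1488, 459, 1058 and 1222 FPKM. Among H3 genes Hist1h3f led with 732, 299.8, 427 and 528 FPKM, followed by Hist1h3g with 486, 169, 290.4 and 377. Both H3 genes were lowest in WT_NP as deposited, and in DKO_ES after the scaling described below. Among H2A genes Hist1h2ak was at 746, 186, 196 and 432 FPKM and Hist1h2ab at 436, 181, 247 and 379.6. Hist1h2ak differed from Hist1h2ab mainly in WT_ES, where it was the higher, and in DKO_ES, where it was the lower. Hist1h2bb, the H2B gene after Hist2h2bb, was at 1113, 445, 766 and 810.1 FPKM. At the other end, Hist2h2be, known as a variant H2B gene of olfactory neurons, reached 1.05 FPKM at most although all of its windows are its own.

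Summed over the 62 members, deposited FPKM came to 23450 (WT_ES), 8496 (WT_NP), 13924 (DKO_ES) and 17898 (DKO_NP). H4 genes made up 47.2%, 45.8%, 48.6% and 47.0% of these sums, a share that moved little. H2A genes made up 10.5%, 8.95%, 7.48% and 9.44%, lowest in DKO_ES, and H3 genes 16.1%, 15.0%, 13.9% and 13.4%. The Hist1 cluster held 84.7%, 80.7%, 83.3% and 79.8%, so its share was lower in both progenitor libraries, while that of Hist2 was 14.2%, 17.1%, 15.8% and 18.4%.

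**Figure D2:**
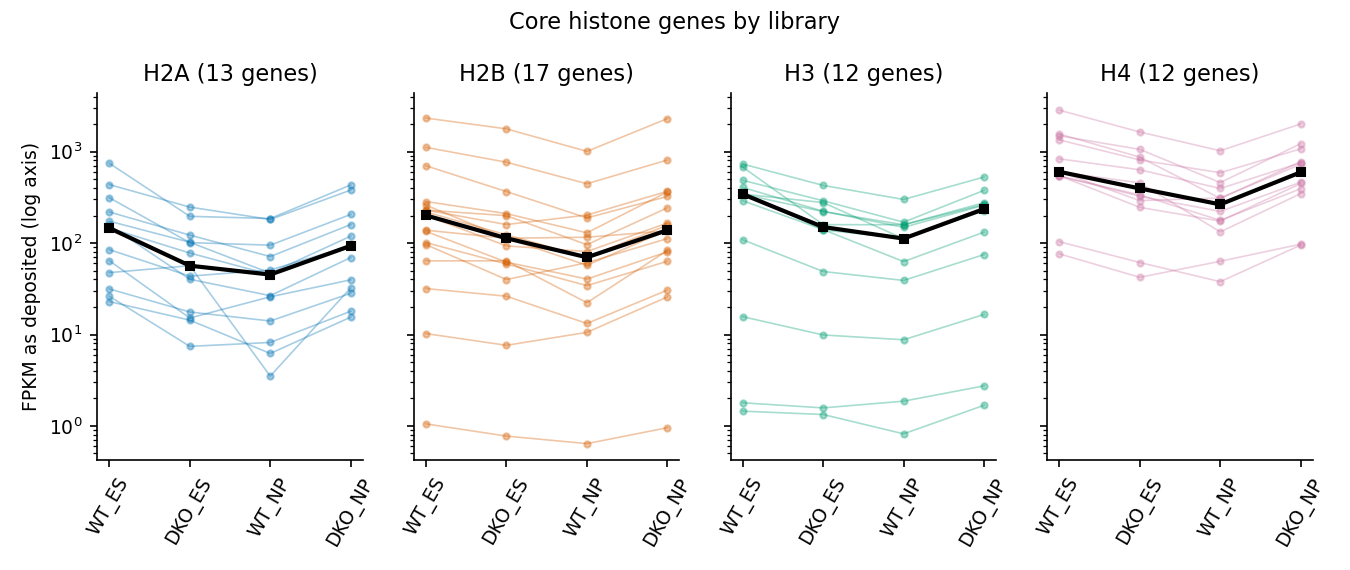
Deposited FPKM (log axis) of the 54 members that reach 1 FPKM in at least 1 library, in 4 panels by histone type, with 1 thin line per gene and the median in black. The libraries are ordered WT_ES, DKO_ES, WT_NP, DKO_NP. Medians are lowest in WT_NP in all 4 panels on this unscaled scale, and 1 H2A line, Hist1h2aa, drops to 3.51 FPKM there.

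The deposited values are not on one scale between libraries: over all genes the median log2 ratio was -0.82 for WT_NP against WT_ES, -0.43 for DKO_NP against DKO_ES, -0.06 for DKO_ES against WT_ES and 0.39 for DKO_NP against WT_NP. Ratios below are therefore of FPKM divided by a factor per library, the median ratio to the 4-library geometric mean (1.3189 (WT_ES), 0.6707 (WT_NP), 1.2518 (DKO_ES) and 0.9081 (DKO_NP)), with 1 FPKM added. With these factors the median over all genes was between -0.03 and 0.01 in the 4 comparisons. Folds printed with an interval, and folds of summed levels, are of scaled FPKM without the added 1, so they can differ from the log2 ratios at low levels. A gene was counted as higher or lower at 2-fold or more, a log2 ratio of 1, among genes at 1 FPKM or more in at least 1 library of the pair. After scaling the members summed to 17781, 12667, 11123 and 19711. DKO_NP held the highest scaled value of 34 of the 54 members and WT_ES that of 18; DKO_ES held the lowest of 40 and WT_NP of 14. The check on the knocked-out genes gave Dnmt3a at 35.3, 17.2, 12.3 and 4.14 FPKM and Dnmt3b at 140.3, 9.98, 13.9 and 5.22 FPKM, with the libraries in that order throughout (WT_ES, WT_NP, DKO_ES, DKO_NP). RNA of both was lower in each knockout library than in its wild-type partner and was not at 0; which exons were deleted is not given, so these gene totals cannot show how complete the loss was. By the steps between low values, WT_NP was sequenced about 2.63 times as deeply as WT_ES, DKO_ES 1.09 times and DKO_NP 1.82 times, and 12756 to 13128 genes reached 1 FPKM.

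In ES cells, core histone RNA was lower in the knockout across nearly the whole set. Of 54 members 52 were lower in DKO_ES than in WT_ES and 2 were higher, with a median log2 ratio of -0.69. In that comparison 13 were lower by 2-fold or more (24.1%), against 1.15% of all 13596 genes, and 0 were higher by 2-fold, against 2.56%. The scaled sum was 1.6-fold lower. In bulk RNA, fewer cells of a kind, such as cells in S phase, and less histone RNA per cell cannot be told apart. H2A genes had the lowest median, -0.82, followed by H3 at -0.68, H4 at -0.66 and H2B at -0.45.

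The lowest H3 ratio was that of Hist1h3e, deposited at 679 FPKM in WT_ES and 159 in DKO_ES, with 159 in WT_NP and 276 in DKO_NP. Its scaled level was 4.05-fold lower in DKO_ES than in WT_ES (interval 3.86 to 4.25), a log2 ratio of -2.01. WT_ES was the highest library for this gene. Hist2h2ab was the lowest H2A gene, at 64.2 FPKM (WT_ES), 25.8 (WT_NP), 15.2 (DKO_ES) and 39.6 (DKO_NP), or 4.02-fold lower in DKO_ES (3.24 to 5.04). Here DKO_ES alone was low, and 79.0% of its windows are its own. Hist3h2ba, lowest of the H2B genes, was at 96.2, 61.0, 39.9 and 112.1 FPKM in the same order and had a log2 ratio of -1.17. Hist1h4c, lowest of the H4 genes, was at 545, 174, 246 and 448 FPKM and had a log2 ratio of -1.07. At the upper end of their types stood Hist1h4i, with a log2 ratio of -0.32, and Hist1h3h, with -0.23. The 2 members above 0 were Hist1h2aa (0.32) and Hist1h2ba (0.07), the latter 0.0 without scaling.

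In neural progenitors the difference between genotypes was the other way. Of 53 members 52 were higher in DKO_NP than in WT_NP, with a median log2 ratio of 0.63 and a scaled sum 1.56-fold higher. Only 3 members were higher by 2-fold or more (5.66%), close to the 4.76% of all 13601 genes, and 0 were lower by 2-fold, against 7.99%. The difference was thus spread over the set in small steps. Type medians were 0.75 for H4, 0.68 for H2A, 0.66 for H2B and 0.42 for H3. Without scaling 30 of 53 passed 2-fold (56.6%), against 10.2% of all genes, and the median was 1.06.

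The 3 members past 2-fold were Hist1h2aa, Hist1h2ba and Hist1h2bm, the last named after its values were seen. Hist1h2bm was at 285 FPKM (WT_ES), 129 (WT_NP), 209.9 (DKO_ES) and 362 (DKO_NP). Hist1h4f had the highest H4 ratio in this comparison, 0.98, and its scaled level was 1.97-fold higher in DKO_NP (1.91 to 2.03). Hist1h3g had the highest H3 ratio, 0.72. The lowest H4 ratio was that of Hist4h4, 0.18, and the lowest H3 ratio at 5 FPKM or more was that of Hist1h3i, 0.3. The only member below 0 was Hist1h2bn, at 138 FPKM (WT_ES), 116 (WT_NP), 113 (DKO_ES) and 136 (DKO_NP). Its log2 ratio in progenitors was -0.21, which became 0.23 without scaling. Only 13.6% of its windows are its own.

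**Figure D3:**
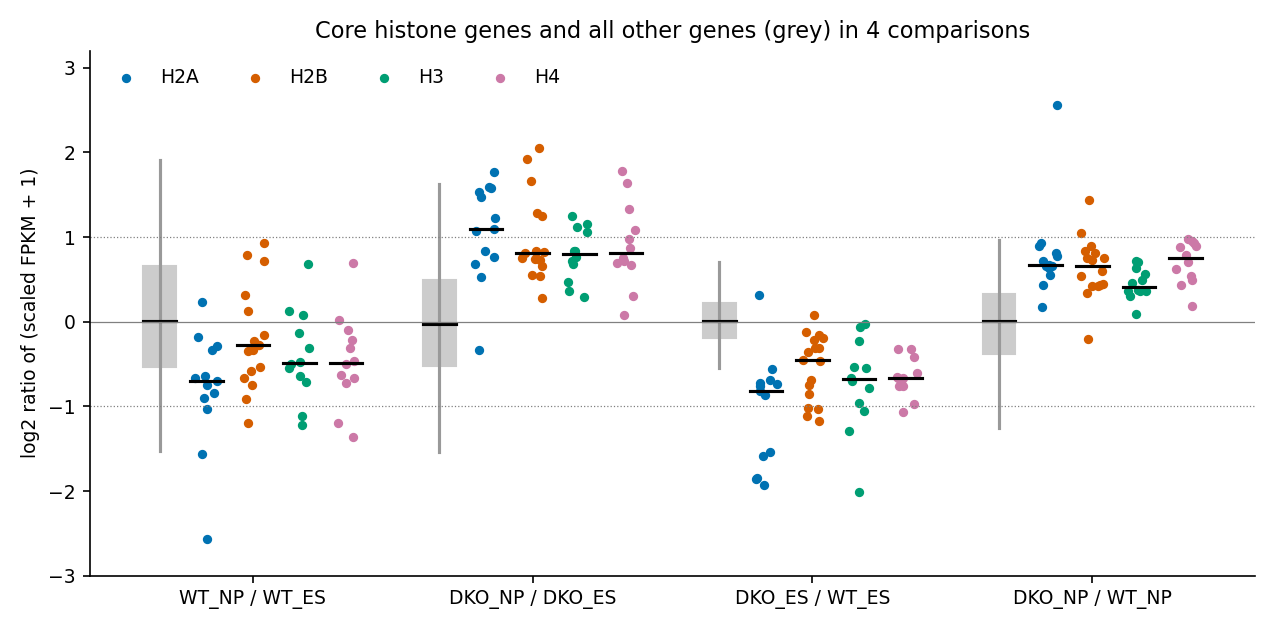
Log2 ratios of scaled FPKM plus 1 in the 4 comparisons, with 1 point per member by histone type and the type median as a black bar; the grey box and line give the 25th to 75th and 5th to 95th percentiles of all other genes, with their median in black. Dotted lines mark 2-fold. Type medians lie below 0 in DKO_ES against WT_ES and above 0 in DKO_NP against WT_NP.

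Differentiation of wild-type cells went with lower core histone RNA, though less evenly. Of 54 members 43 were lower in WT_NP than in WT_ES and 11 were higher, and without scaling these numbers were 52 and 2. The median log2 ratio was -0.48, and 8 members were lower by 2-fold or more (14.8%), against 11.3% of all 14086 genes, so on scaled values this share was near that of all genes. Without scaling 43 members were lower by 2-fold (79.6%), against 41.7% of all genes. None was higher by 2-fold, against 16.2% of all genes. The scaled sum was 1.4-fold lower.

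Hist1h4m had the lowest H4 ratio, at 1559 FPKM (WT_ES), 308 (WT_NP), 870.4 (DKO_ES) and 776 (DKO_NP), or 2.57-fold lower in WT_NP (2.48 to 2.67). It shares 89.8% of its windows with Hist1h4n, which was listed at 0 in all 4 libraries. Hist1h3c had the lowest H3 ratio, -1.23, and Hist1h2bk the lowest H2B ratio, -1.2. Hist1h4i, with 71.1% of its windows its own, was at 599 FPKM (WT_ES), 132 (WT_NP), 455 (DKO_ES) and 348 (DKO_NP), with a ratio of -1.2. For these 4 genes WT_NP was the lowest library. Among the highest ratios, Hist1h2bh (229.7, 203, 159 and 368 FPKM) had 0.79 and Hist1h2bn had 0.72, and both became negative without scaling (-0.18 and -0.25).

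Differentiation of the knockout cells went with higher core histone RNA. Of 53 members 52 were higher in DKO_NP than in DKO_ES, with a median log2 ratio of 0.83 and a scaled sum 1.77-fold higher. In that comparison 21 were higher by 2-fold or more (39.6%), against 11.8% of all 14050 genes, and 0 were lower by 2-fold, against 11.2%. By type 8 of 13 H2A genes passed 2-fold, 5 of 16 H2B, 4 of 12 H3 and 4 of 12 H4, with medians of 1.09, 0.82, 0.8 and 0.81. Without scaling 47 of 53 were higher and 10 passed 2-fold (18.9%), against 7.84% of all genes, and the median was 0.37.

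Hist2h4, an H4 gene with 99.0% of its windows its own, was at 605 FPKM (WT_ES), 311 (WT_NP), 291 (DKO_ES) and 727 (DKO_NP). It was 3.44-fold higher in DKO_NP than in DKO_ES (3.26 to 3.63), and its 2 wild-type libraries did not differ after scaling beyond counting error (1.01-fold, 0.966 to 1.06). Hist2h2ab had the highest H2A ratio, 1.77, and Hist1h3e the highest H3 ratio, 1.25. The low end held Hist1h4i (0.07), Hist1h2bg (0.28) and Hist1h3h (0.29). Their signs turned without scaling, to -0.39, -0.18 and -0.17. The only member below 0 on the scaled values was Hist1h2aa, at -0.33.

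The 2 differentiation ratios share no library, and their difference, knockout minus wild type, was above 0 for all 54 members. Its median was 1.36 on the log2 scale, with a range of 0.01 to 2.79, and 42 of 54 members (77.8%) reached 1 or more, against 4.31% of 14713 genes. All 13 H2A genes at 1 FPKM reached it, as did 12 of 17 H2B, 7 of 12 H3 and 10 of 12 H4 genes. A lower value in wild-type progenitors together with a higher one in knockout progenitors was seen for 42 of 54 members and for 1376 of the 14713 genes. A lower value in DKO_ES than in WT_ES together with a higher one in DKO_NP than in WT_NP was seen for 50 of 54 members and for 2586 genes. These counts arrange the same 4 libraries in different ways and are not separate evidence.

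Hist1h2af had the largest difference, 2.79. It was at 157 FPKM (WT_ES), 26.6 (WT_NP), 40.2 (DKO_ES) and 69.4 (DKO_NP). Its scaled level was 3.01-fold lower in WT_NP than in WT_ES (2.67 to 3.4) and 2.38-fold higher in DKO_NP than in DKO_ES (2.06 to 2.76). Hist1h2ak had 2.62, Hist1h3e 2.37 and Hist1h2an 2.25. The share of windows of their own was 20.3%, 47.7%, 26.6% and 14.2% for these 4 genes, so all stood below 50%, and how shared reads were assigned bears on each. Among the 32 members with more than 50% of windows their own the median difference was 1.29, close to the 1.36 of the whole set. That share is over the longest annotated transcript, so this subset can still hold members whose short mRNA is mostly shared. It does not settle how shared reads bear on the difference. The smallest differences at 5 FPKM or more were those of Hist1h2bn (0.01), Hist1h4a (0.82), Hist1h3i (0.85) and Hist1h2bh (0.87).

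**Figure D4:**
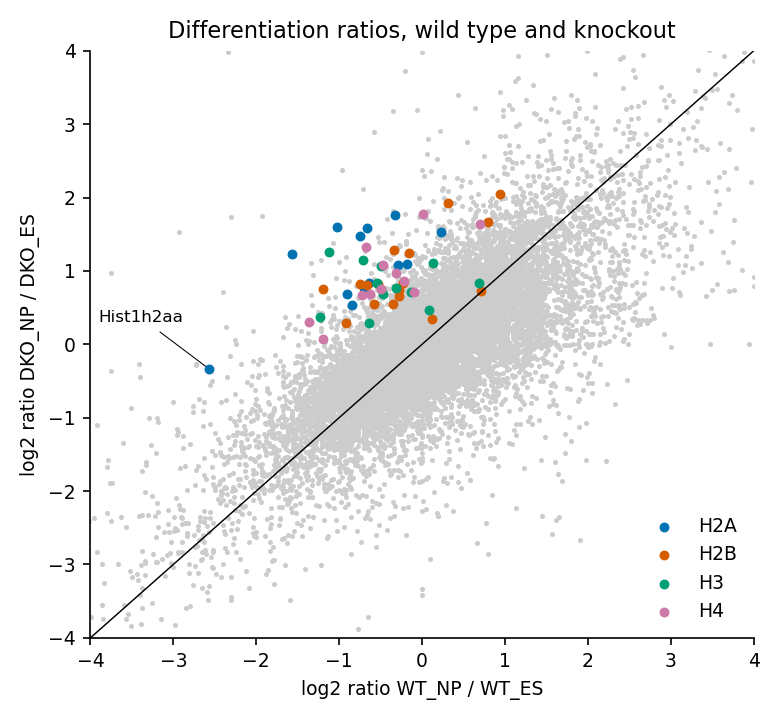
Log2 ratio of DKO_NP to DKO_ES against that of WT_NP to WT_ES, both on scaled FPKM plus 1, for the 54 members (coloured by type) and all other genes at 1 FPKM or more in at least 1 library (grey); axes are cut at -4 and 4. All 54 members lie above the diagonal, where both ratios would be equal, Hist1h2bn by 0.01.

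Hist1h2aa and Hist1h2ba encode TH2A and TH2B, histones known from testis and the early embryo. By their GENCODE transcripts they start 305 bases apart in opposite directions. Their promoter stretches printed above are set from RefSeq starts, which lie closer together, and these stretches overlap. Hist1h2aa was at 47.5 FPKM (WT_ES), 3.51 (WT_NP), 56.6 (DKO_ES) and 32.4 (DKO_NP), resting on about 263, 51, 341 and 326 reads. WT_NP was low and the other 3 libraries were high. It was 6.89-fold lower in WT_NP than in WT_ES (5.09 to 9.48) and 6.81-fold higher in DKO_NP than in WT_NP (5.06 to 9.34). With 1 FPKM added, the log2 ratios of these 2 comparisons were -2.57 and 2.56. The 2 ES libraries differed by 1.25-fold (1.06 to 1.48). Hist1h2ba was at 63.9, 22.3, 64.0 and 83.0 FPKM in the same order. It too was lowest in WT_NP, and 2.75-fold higher in DKO_NP than there (2.41 to 3.14), while in ES cells the ratio was 1.05 (0.909 to 1.22). The share of windows of their own was 97.7% for Hist1h2aa and 61.8% for Hist1h2ba. The ES cell genes Pou5f1, Nanog, Sox2, Zfp42 and Esrrb summed to 2388, 34.6, 2502 and 137 deposited FPKM in the 4 libraries, none at 0. Sox2 made up 12.2 FPKM of this sum in WT_NP and 56.2 in DKO_NP. All 5 genes were higher in DKO_NP than in WT_NP after scaling, with log2 ratios from 0.61 (Pou5f1) to 2.29 (Zfp42). Their part in the level of Hist1h2aa and Hist1h2ba was not tested.

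Of the 13 back-to-back H2A and H2B pairs found with GENCODE starts within 500 bases, 9 had both genes at 5 FPKM or more. The 2 genes of a pair differed from each other by a median of 0.3 on the log2 scale in DKO_NP against WT_NP, and by 0.51 to 0.57 in the other comparisons. Partners could differ widely: Hist1h2ak and Hist1h2bn start 295 bases apart by GENCODE, and their log2 ratios in DKO_ES against WT_ES were -1.85 and -0.21. Only 47.7% and 13.6% of their windows are their own, so how shared reads were assigned bears on this difference. H2A and H2B members with the octamer had a median of -0.72 in that comparison (13 genes), and those without it -0.75 (14 genes). Members with the stem-loop in their longest annotated transcript had -0.75 (33 genes) and those without it -0.56 (21 genes).

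The 4 loci ordered differently in differentiation. In WT_NP against WT_ES the median log2 ratio was -0.6 for the 42 Hist1 genes at 1 FPKM or more, 0.05 for 8 Hist2 genes, 0.31 for the 3 Hist3 genes and 0.7 for Hist4h4; without scaling the values were -1.55, -0.87, -0.65 and -0.27, so the sign of the last 3 turned and the order stayed. In DKO_NP against DKO_ES the medians were 0.77, 1.11 for 7 Hist2 genes, 1.92 and 1.64. The wild-type Hist2 median includes Hist2h2be, Hist2h3c1 and Hist2h3c2, which had ratios of 0.12, 0.08 and 0.68. None of them exceeded 2.75 FPKM in any library. The scaled sum of all Hist2 members was 1.17-fold lower in WT_NP than in WT_ES, and that of Hist1 1.47-fold lower. Hist4h4, an H4 gene outside the clusters, was at 76.2 FPKM (WT_ES), 63.3 (WT_NP), 42.2 (DKO_ES) and 97.3 (DKO_NP). Hist3h2a was at 84.8, 50.8, 43.5 and 93.3 FPKM, with DKO_ES lowest as for Hist4h4. Hist3h2bb-ps, annotated as a processed pseudogene, was at 10.2, 10.6, 7.62 and 25.8 FPKM, and had the highest ratio of all members in both differentiations, 0.94 and 2.05. Hist4h4, Hist3h2a and Hist2h4 have annotated transcripts that run 2445, 1643 and 1257 bases past the stem-loop, and whether the reads came from the short stem-loop form or from longer RNA cannot be told from gene totals.

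**Figure D5:**
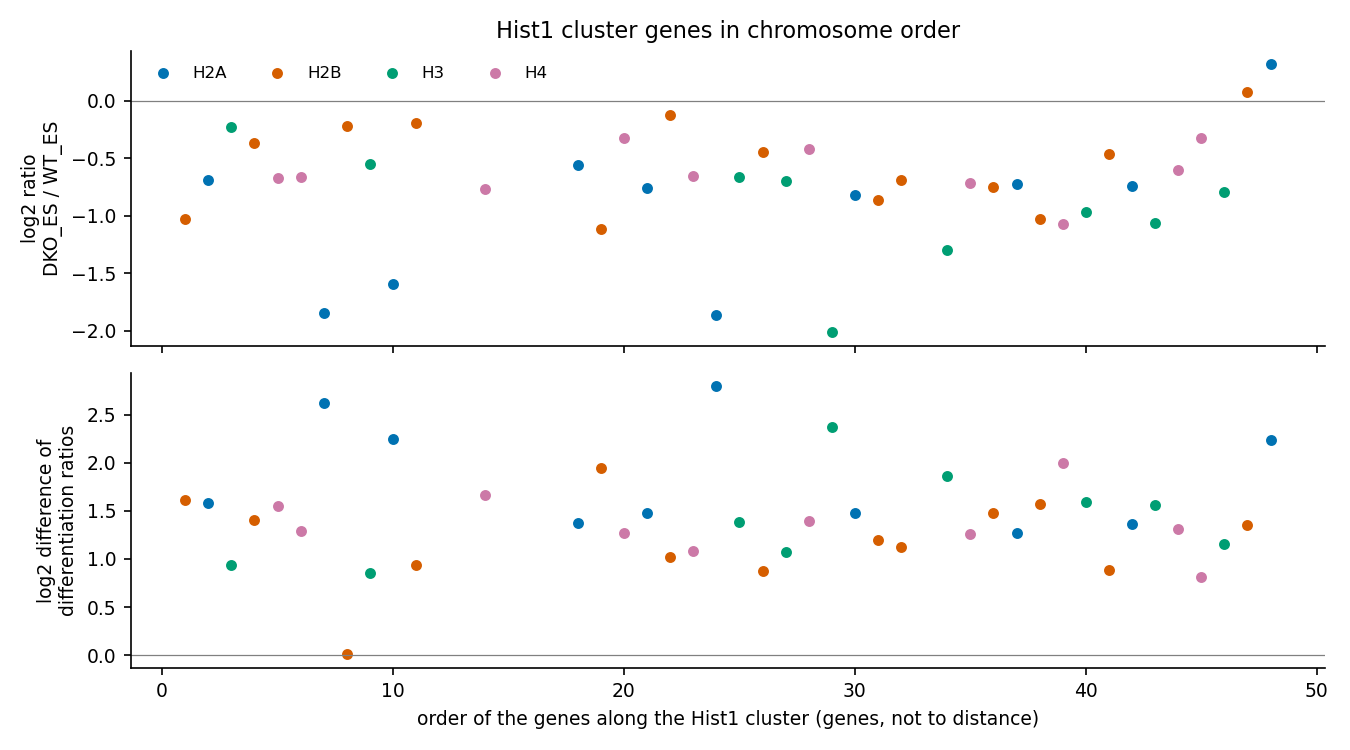
Hist1 members at 1 FPKM or more in chromosome order (horizontal axis counts genes, not bases), coloured by type: log2 ratio of DKO_ES to WT_ES above, and the difference of the 2 differentiation ratios below. The 4 lowest points above, Hist1h2ak, Hist1h2an, Hist1h2af and Hist1h3e, are 7th, 10th, 24th and 29th in order, and the 2 points above 0 are the neighbours Hist1h2ba and Hist1h2aa at one end.

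The genes that act on core histone mRNAs had smaller median ratios between genotypes than the mRNAs. Of 13 genes for 3′ end processing and decay, 0 were past 2-fold in either comparison of genotypes, and the median log2 ratio was -0.03 in ES cells and 0.22 in progenitors. Slbp was at 123 FPKM (WT_ES), 42.7 (WT_NP), 95.2 (DKO_ES) and 89.0 (DKO_NP). Its log2 ratio was -0.29 in ES cells and 0.61 in progenitors, lower and then higher in the knockout as for the members. Lsm10 had 0.05 and -0.33, and Lsm11 0.02 and -0.2, in the same comparisons. Without scaling, the signs of all 4 of these turned (-0.02, 0.07, -0.04 and 0.15). Zfp473, a zinc finger protein of the U7 complex, was the only one of the 13 past 2-fold in differentiation, at 24.6, 4.12, 24.7 and 5.18 FPKM, lower in both progenitor libraries. Casp8ap2, needed for histone locus bodies and S phase, had log2 ratios of 0.08 in ES cells and 0.22 in progenitors.

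Among 7 genes for transcription of histone genes, Npat, the coactivator that cyclin E and Cdk2 phosphorylate, was at 22.6, 11.5, 21.5 and 16.3 FPKM, with log2 ratios of 0.0 in ES cells and 0.06 in progenitors. Ccne1, cyclin E1, was at 146, 14.8, 164 and 50.0 FPKM, the only one past 2-fold between genotypes (1.28 in progenitors). The list's median was 0.11 in ES cells and 0.14 in progenitors. The histone chaperones had medians of 0.0 and 0.27, with 2 of 14 higher by 2-fold in DKO_NP than in WT_NP, Asf1b (1.2) and Hat1 (1.16).

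The 24 genes of S phase DNA replication act in the phase in which the members are transcribed. Their median log2 ratio was 0.15 in DKO_ES against WT_ES, where the members' was -0.69, and 0.35 in DKO_NP against WT_NP, where the members' was 0.63. It was -0.57 in wild-type and -0.32 in knockout differentiation, where the members' medians were -0.48 and 0.83. Pcna, the replication clamp, was at 447 FPKM (WT_ES), 154 (WT_NP), 488 (DKO_ES) and 323 (DKO_NP). Of the 24 genes 5 were below 0 in DKO_ES against WT_ES, the lowest being Cdt1 (-0.52), and 3 were above 0 in DKO_NP against DKO_ES, the highest being Rfc3 (0.71). The part of S phase in the members' ratios was not tested. The signs of these S phase medians were the same without scaling (0.08, 0.78, -1.54 and -0.78, in the order ES cells, progenitors, wild-type and knockout differentiation). The 10 mitosis genes had medians of 0.07 in ES cells, -0.01 without scaling, and 0.28 in progenitors.

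Replacement histone genes are expressed outside S phase and mostly have poly(A) tails. Of 9, only H2afx was past 2-fold in DKO_ES against WT_ES, with a log2 ratio of -1.08. It was at 627 FPKM (WT_ES), 83.1 (WT_NP), 281 (DKO_ES) and 176 (DKO_NP), high in WT_ES alone. H2afx is known to make both a stem-loop mRNA and one with a poly(A) tail. H3f3b, which encodes H3.3, was at 436, 264, 360.4 and 359 FPKM. The list's median was -0.16 in ES cells and 0.31 in progenitors. A list of other RNAs taken to lack a poly(A) tail had medians of the opposite sign to the members' in all 4 comparisons. Of its 9 RNAs, 7 were in the table, and gene totals do not show whether their reads came from forms without a tail. The medians were 1.17 in wild-type differentiation, -0.23 in knockout differentiation, 0.28 in DKO_ES against WT_ES and -0.76 in DKO_NP against WT_NP. Rnu12, a minor spliceosome RNA, was at 2839 FPKM (WT_ES), 6735 (WT_NP), 4036 (DKO_ES) and 974 (DKO_NP), and Malat1, a long nuclear RNA, at 1009, 1329, 1213 and 529. Single RNAs of the list went both ways: Terc, the telomerase RNA, had -1.05 in wild-type differentiation, and 3 of the 7, Rmrp (0.34), Rpph1 (0.36) and Neat1 (0.55), were above 0 in knockout differentiation, the first 2 below 0 without scaling (-0.13 and -0.1). In DKO_NP against WT_NP, Rpph1 (0.3) and Neat1 (0.74) were above 0 and the other 5 were below.

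Markers of other cells moved with the same comparisons. The sums given here are of deposited FPKM, which are not on one scale between libraries, while counts at 2-fold are of scaled values. The 6 neural progenitor markers summed to 24.9 FPKM (WT_ES), 43.9 (WT_NP), 31.7 (DKO_ES) and 178 (DKO_NP). Of these 6, 5 were higher by 2-fold or more in DKO_NP than in WT_NP. In wild-type differentiation 5 of 5 at 1 FPKM or more were higher by 2-fold, with a median log2 ratio of 1.64. Fabp7 was listed at 0 in WT_ES. The 3 primitive red blood cell globins summed to 763 FPKM in WT_NP and 72.9 in DKO_NP, and to 0 and 0.144 in WT_ES and DKO_ES. The 5 visceral endoderm genes summed to 3.19, 112, 1.25 and 20.4 FPKM and the 4 mesoderm genes to 1.45, 41.2, 1.76 and 13.4, in the order WT_ES, WT_NP, DKO_ES and DKO_NP; Ttr was listed at 0 in both ES libraries. The 8 fibroblast genes summed to 61.1, 58.1, 15.8 and 34.7 FPKM, and 3 of 5 were lower by 2-fold or more in DKO_ES than in WT_ES. In wild-type differentiation 4 of 6 were higher by 2-fold and 1 was lower, with a median log2 ratio of 1.07. Dcn was listed at 0 in both ES libraries. The part of these cells in the members' ratios was not tested.

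Over the 4 libraries the members' mean log2 scaled level ranged over 0.93. Of 8960 other genes at 10 FPKM or more in at least 1 library, those most like it were Npdc1 and Dynll2 (Pearson r 0.998), Pgls (0.997), Plxna1, Gpank1 and Ado (0.996), Jtb (0.995), Ints5 and Sac3d1 (0.994) and Polr1c (0.993). With 4 points that share their libraries and scaling, 14 genes lay above 0.99, and r is a description only. Dynll2 ranged over 0.67 and Pgls over 0.63 on the log2 scale, while Gpank1 ranged over only 0.19.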

How the data were processed

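Total RNA (5 µg) was depleted of rRNA, made into TruSeq libraries with 15 cycles of PCR and sequenced as single reads of 50 cycles, per the labels' protocols. Bowtie, TopHat and mm9 are named in the submitters' processing notes; which program made the FPKM values, on which annotation, and its rule for reads with several matches were not given in the sources used here. The authors deposited FPKM for 23235 symbols (18 blank rows were left out; 0 value columns were unmapped). FPKM are not counts, so no count test was run; with 1 library per group there is no p-value. Scaling, pseudocount (1 FPKM), filter (1 FPKM) and call (2-fold) are as stated above. Read numbers were estimated from the steps between low values.

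The set of members was proposed, and the gene lists were written, with earlier results of these data known, although the rule itself reads only symbols. Members named are the 2 highest per type, the highest and lowest ratio per type and comparison at 5 FPKM or more, the 4 largest and smallest differences, all of Hist3 and Hist4, and Hist1h2aa, Hist1h2ba and Hist2h2be; others are said to be chosen later or illustrate a pair. Transcripts, windows, distances within pairs and the stem-loop come from GENCODE M21 and promoters from RefSeq GRCm38.p6, with no position carried over to mm9. All 62 members had a transcript and 55 a promoter. Scripts were tested on simulated data (Python 3.11.15, pandas 2.3.3, NumPy 2.4.6, SciPy 1.17.1).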

Additional observations from a re-analysis of the deposited data

Results flagged for a closer look

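The differentiation ratios of the core histone genes pointed opposite ways in the 2 genotypes, lower in wild-type and higher in knockout progenitors than in their ES cells. The difference was not tested, since each group has 1 library. The medians of the 2 ratios differed by 1.32 on the log2 scale over all members, 1.79 for H2A, 1.1 for H2B, 1.28 for H3 and 1.3 for H4. Of the 54 members at 1 FPKM or more, 15 were at least 1.5-fold lower in wild-type and at least 1.5-fold higher in knockout differentiation, and 0 were the reverse. The 7 of these that are named by the rule for named members were Hist1h2af (difference 2.79), Hist1h2ak (2.62), Hist1h3e (2.37), Hist1h2an (2.25), Hist1h4c (2.0), Hist1h2bk (1.95) and Hist1h4f (1.39). How many of all genes met this 1.5-fold rule was not counted, so 15 of 54 has no such share beside it. A difference of 1 or more was seen for 77.8% of the 54 members and 4.31% of 14713 genes.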

How the results depend on the processing

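No paired analysis was possible because each group has 1 library, and no replicate could be left out. No median or count below changed sign. Of the main values under an alternative, 75 were counted as close to the reported one and 19, all given here, as moved. Those counted as close include the median in WT_NP against WT_ES, reported as -0.48. It was -0.3 with upper quartile scaling, -0.33 with no filter on low values and -0.34 with only members over 50% of windows their own. Without scaling, 43 members were lower in WT_NP than in WT_ES (median -1.45), 10 were higher in DKO_NP than in DKO_ES (0.37), 30 were higher in DKO_NP than in WT_NP (1.06), the median in DKO_ES against WT_ES was -0.77, and the median difference of the differentiation ratios was 1.84. With a call at 1.5-fold, 22 members were lower and 5 higher in WT_NP than in WT_ES, 43 higher in DKO_NP than in DKO_ES, 34 lower in DKO_ES than in WT_ES and 30 higher in DKO_NP than in WT_NP. All genes were not counted at 1.5-fold, so these 1.5-fold numbers have no share of all genes beside them. With only members that have over 50% of windows of their own, which leaves fewer genes, 3 of 32 were lower in WT_NP, 13 of 31 higher in DKO_NP than in DKO_ES and 6 of 32 lower in DKO_ES. Upper quartile scaling and a pseudocount of 0.1 FPKM each gave 1 member higher in WT_NP. Without Hist1h2aa and Hist1h2ba, a choice made after seeing the data, 1 of 51 members was higher by 2-fold in DKO_NP than in WT_NP. Members with few windows of their own depend on how reads were assigned among near copies, which is not given. With over 50% of windows their own, the median was -0.71 in DKO_ES against WT_ES and 0.83 in DKO_NP against DKO_ES. That share is over the longest annotated transcript, so some of these members may still share most of their short mRNA.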
